A study of Danio rerio with 6 samples.

Results

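The engrailed genes encode homeodomain transcription factors. The zebrafish genome carries them as the pairs eng1a and eng1b, and eng2a and eng2b. They were chosen here by name, and 3 of the 4 were found among the 24789 gene IDs of the tables. The gene table names them EN1 (ENSDARG00000014321), which is eng1a, the copy other than eng1b, and EN2 for both ENSDARG00000026599 and ENSDARG00000038868, without saying which of the pair is eng2a and which eng2b. The gene eng1b was not analysed here. The family was picked because EN2 (ENSDARG00000026599) was known to be among the largest decreases in these libraries. The differences between the groups in the engrailed genes are therefore given as a description, with no test.

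In the zebrafish trunk, engrailed proteins mark the muscle pioneers, a small set of slow fibres at the horizontal myoseptum, the sheet that divides the dorsal from the ventral muscle. A weaker signal is known from the medial fast fibres next to them. Both cell types form where Hedgehog protein from the notochord and floor plate is high, and Bmp signalling holds engrailed expression back above and below the midline. Outside muscle, engrailed genes are known from the midbrain-hindbrain boundary, from a class of ascending inhibitory interneurons of the spinal cord and from the fin bud ectoderm.

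Embryos came from crosses of qkia+/- zebrafish and were injected at the one-cell stage with 0.6 pmol of morpholino, an antisense oligonucleotide that blocks a chosen transcript. Of the 6 libraries, 3 were controls, from qkia+/+ or qkia+/- siblings given a control morpholino. The other 3, called loss of function, came from qkia-/- siblings given a qkic morpholino. The genes qkia and qkic encode Quaking proteins, which bind RNA. Genotype and morpholino changed together, and embryos were told apart by their morphology. Poly(A) RNA was taken from trunks 24 to 26 h after fertilization, with head and yolk removed. The sources used here do not give the number of embryos in a library, or say that libraries came from separate clutches, so the p-values measure only how these 6 libraries vary.

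Values are normalized read counts, that is reads of a gene divided by 1 size factor for the library. The tables correspond to 38804265 to 44799398 reads per library. The mutated gene qkia had values of 58.9 to 81.9 in controls and 3.34 to 6.93 in loss of function trunks. Of the genes named QKI, ENSDARG00000010018 had a log2 difference of -0.94, and ENSDARG00000002026 one of 0.12 that was not called. Muscle was represented as labelled, with desmin (DES, ENSDARG00000058656) between 52006 and 58676 in all 6 libraries. Of 18917 genes tested with limma, 41.9% had an adjusted p under 0.05, with 21.9% higher and 20.0% lower in loss of function. The median log2 difference over all of them was 0.00048.

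EN2 (ENSDARG00000026599) was the engrailed gene with the larger difference. Its values were 116, 106 and 146 in control replicates 1, 2 and 3. They were 27.9, 37.6 and 17.8 in loss of function replicates 1, 2 and 3. The groups did not overlap, and the lowest control value was 2.81 times the highest loss of function value. The means were 123 ± 21.0 and 27.8 ± 9.89 (SD, n = 3 in each group), a ratio of 4.41. On the log2(value + 1) scale the difference was -2.15 (SE 0.23), and 0.0687% of the genes tested had a larger fall.

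These values rest on 132, 107 and 144 reads in controls and on 28, 38 and 16 reads in loss of function. The exact Poisson 95% interval, which covers counting error only, ran from 86.5 to 128 for the lowest control and from 26.6 to 51.6 for the highest loss of function library. The coefficient of variation was 17.1% in controls and 35.6% in loss of function.

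EN1 (ENSDARG00000014321) gave more reads and a smaller difference. Its values were 788, 752 and 723 in control replicates 1, 2 and 3, and 563, 586 and 625 in the loss of function replicates. The groups did not overlap either, and the lowest control value was 1.16 times the highest loss of function value. The means were 754 ± 32.7 and 592 ± 31.4 (SD, n = 3), a ratio of 1.27. The log2 difference was -0.35 (SE 0.07), and 17.6% of the genes tested had a larger fall. Its coefficient of variation was 4.34% in controls and 5.31% in loss of function.

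The other EN2 gene (ENSDARG00000038868) was barely present. It had 2, 7 and 0 reads in control replicates 1, 2 and 3 and 5, 0 and 1 reads in the loss of function replicates. A count of 0 allows up to 3 reads, a value of 3.04 in control replicate 3 and of 2.97 in loss of function replicate 2. The groups overlapped, no fold is given, and the gene did not reach the value of 10 in 3 libraries that the test required.

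The values of EN1 and EN2 (ENSDARG00000026599) did not overlap between the groups, which 25.4% of tested genes showed in the same direction, 26.8% in the opposite one and 52.1% in either. Nothing is read from these counts, since the comparison itself had led to the choice of the family. Transcript lengths were not matched to the IDs, so the level of one engrailed gene is not compared with that of another. In bulk RNA, fewer engrailed-positive cells and less engrailed RNA per cell cannot be told apart.

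**Figure D1:**
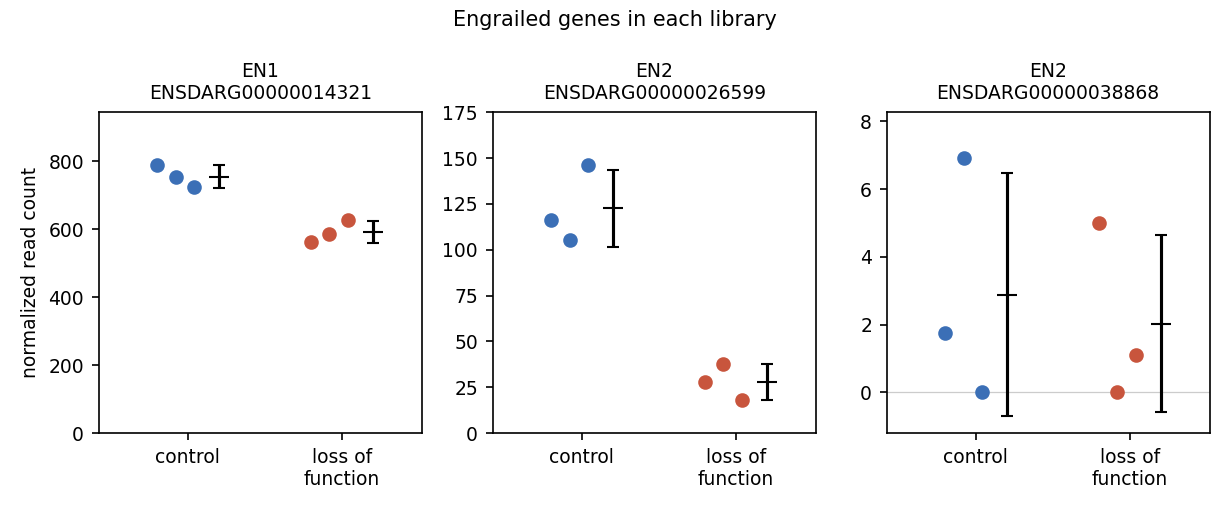
Normalized read count (y axis, a separate scale in each panel) of EN1, EN2 (ENSDARG00000026599) and EN2 (ENSDARG00000038868) in 3 control (blue) and 3 loss of function (red) libraries. Points are libraries and black bars the mean ± SD. The EN2 values of the middle panel are 106 to 146 in controls and 17.8 to 37.6 in loss of function, and the third gene stays at 7 reads or fewer.

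The family's make-up moved with these differences. EN2 (ENSDARG00000026599) contributed 12.8%, 12.2% and 16.8% of the summed engrailed value in control replicates 1, 2 and 3, and 4.68%, 6.03% and 2.77% in the loss of function replicates. EN1 contributed 83.2% to 87.0% in controls and 94.0% to 97.1% in loss of function. The groups were apart in both shares, which are not separate results. The third gene contributed a mean of 0.33% in controls and 0.34% in loss of function. A lower EN2 share therefore leaves a higher EN1 share. EN2 had been picked for its large fall, so the change in shares is a description. The sum over the 3 genes was 880 ± 22.9 (SD, n = 3) in the control group and 621 ± 24.1 after loss of function. Each share depends on the lengths of the genes, so it is compared only between libraries.

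Among other genes, the patterns over the 6 libraries closest to EN2 (ENSDARG00000026599) were those of si:ch73-335l21.4, FOSL1, lyz, si:dkey-261l7.2 and c6.1. Closeness was the Euclidean distance between log2 values centred on their own mean, over 12497 genes that have a symbol and average 50 or more. The distances were 0.56 to 0.90, against a median of 2.79 over those genes. The gene si:ch73-335l21.4 had control values of 446, 410 and 468 and loss of function values of 119, 127 and 95.9. FOSL1, which encodes a subunit of the AP-1 transcription factor, shared the highest value in control replicate 3 (448, against 252 and 282) and the lowest in loss of function replicate 3 (76.9, against 99.7 and 105). The lysozyme gene lyz, a marker of myeloid cells, had 125 to 175 in controls and 31.2 to 33.9 in loss of function.

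For EN1 the closest patterns were those of ATM, calcrla, SCOC, RNF24 and NF1, at distances of 0.0719 to 0.0857 against a median of 0.563. ATM encodes a kinase of the DNA damage response and NF1 a regulator of Ras. Like EN1, all 5 were lower in each loss of function library than in every control library, which 25.4% of tested genes showed. Their log2 differences were -0.30 to -0.39. Being chosen for closeness to EN1 sets these falls, so no test of them is given. These likenesses describe 6 libraries in 2 groups, in which any pair of genes with like differences appears alike.

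**Figure D2:**
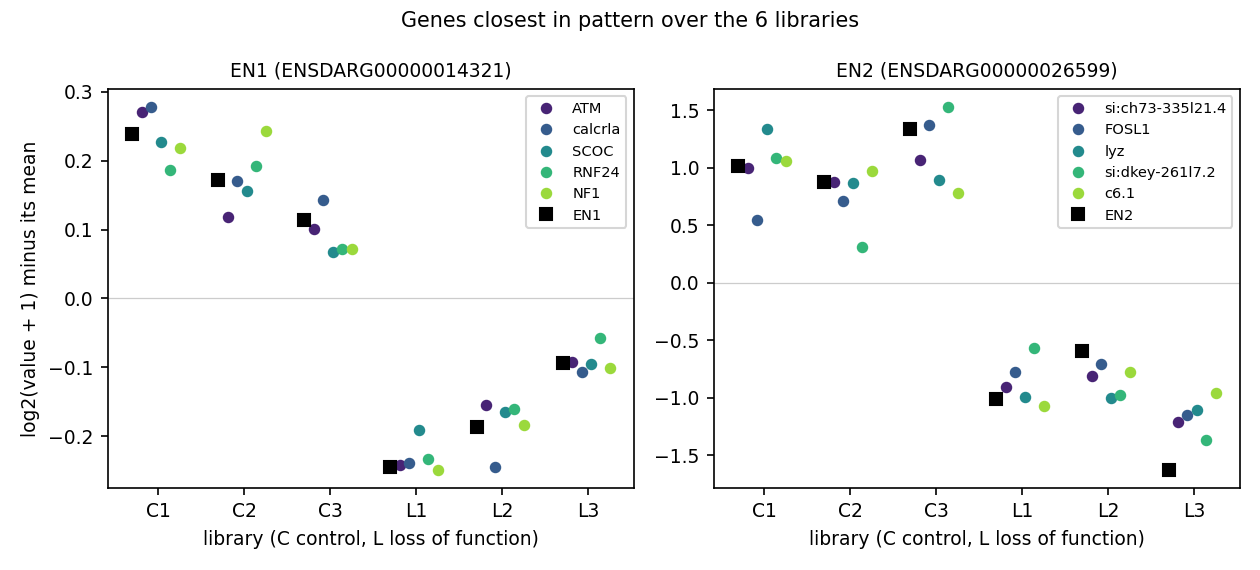
Log2(value + 1) minus its mean over the 6 libraries (y axis) for EN1 (left) and EN2 ENSDARG00000026599 (right), black squares, and the 5 genes closest to each, coloured points, in control (C1 to C3) and loss of function (L1 to L3) libraries. The y scales differ between panels, and the distances to EN2 (0.56 to 0.90) are larger than those to EN1 (0.0719 to 0.0857).

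Genes around engrailed expression were then compared, in 13 lists. These covered its known signals, muscle, tissues known to express it, and other tissues. Among the last were forebrain and eye, other spinal neurons and fin bud mesenchyme. Slow muscle genes were mostly lower. Of 13 tested members, 8 fell and 1 rose, with a median log2 difference of -0.30, beside 20.0% lower and 21.9% higher of all genes tested. PRDM1, the transcription factor that commits adaxial cells to the slow fate, fell from 1555 ± 180 to 1297 ± 24.0 (SD, n = 3), a log2 difference of -0.26 (SE 0.07, limma adjusted p = 0.00695). PROX1, a homeodomain factor of slow fibres and muscle pioneers, fell by 0.60 (SE 0.08, limma adjusted p = 2.87e-05). The myosin heavy chain gene myh7bb fell from 218 ± 27.0 to 135 ± 6.66 (log2 difference -0.67, limma adjusted p = 2.07e-04) and the slow troponin T gene tnnt2d by 0.67 on the log2 scale.

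The largest fall in that list was the -1.79 of TNNT1, a slow troponin T gene. The 1 that rose, TNNI1 (ENSDARG00000052708), had means of only 20.3 and 34.8, and it did not pass without control replicate 2 (limma adjusted p = 0.0830), without loss of function replicate 1 (0.102), without loss of function replicate 2 (0.0704) or with DESeq2 (0.0757). The summed slow list was 115124 to 127485 in controls and 105431 to 107498 in loss of function, without overlap. Most of each sum came from myl10 and tnnt2c. The gene myl10 had means of 50574 and 43163 (log2 difference -0.23, called). Those of tnnt2c were 46957 and 42930 (-0.12, not called), and its groups overlapped. No ID was matched to smyhc1, smyhc2 or smyhc3, which encode slow myosin. Measured against the mean log2 level of the tested slow genes, EN2 (ENSDARG00000026599) differed by -1.70 in loss of function. The replicate SD was 0.44, and the groups did not overlap. EN1 was 0.10 higher on that scale, within its replicate SD of 0.13, and the groups overlapped. That mean weighs low genes with large falls equally, such as TNNT1 (means 43.8 and 12.3). The log2 difference of EN1 itself, -0.35, was a slightly larger fall than the list median of -0.30. EN2 had been picked for its large fall, so its distances from this and later lists are a description.

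Among 15 tested genes of muscle in general, 4 rose and 1 fell (median 0.06), beside 21.9% and 20.0% of all genes. After quantile normalization 2 rose and 3 fell. The summed level was 895447 to 1050770 in controls and 1078650 to 1124710 in loss of function. The myogenic factor MYOG rose from 3836 ± 612 to 4931 ± 59.2 (log2 difference 0.37, limma adjusted p = 0.00102), while MYOD1 had 5513 ± 401 and 5440 ± 121, a log2 difference of -0.02 that was not called (95% interval -0.13 to 0.10). MEF2C (ENSDARG00000029764), a factor of muscle differentiation, rose by 0.30, as did ckmb, a muscle creatine kinase gene, by 0.28. Of the skeletal actin genes named ACTA1, ENSDARG00000055618 rose by 0.31 and ENSDARG00000036371 fell by 0.36. Fast muscle genes went both ways, with 4 of 14 higher and 5 lower (median 0.11), beside 21.9% and 20.0% of all genes. SOX6, a repressor of the slow program in zebrafish fast fibres, rose from 2861 ± 198 to 3623 ± 115 (0.34, limma adjusted p = 1.10e-04). The fast myosin gene myhz2 fell by 1.02 on the log2 scale and myhz1.2 by 0.31, while myhz1.3 rose by 0.43. Further calls were MYL1 (ENSDARG00000014196, 0.20), which rose, and mybpc2b (-0.69) and both TNNT3 genes (ENSDARG00000068457, -0.61; ENSDARG00000030270, -0.21), which fell. After quantile normalization the medians of both lists were negative, -0.08 in each, ckmb was at -0.0794, and ACTA1 (ENSDARG00000055618) was not called (limma adjusted p = 0.121). Without any 1 of the loss of function libraries, ckmb, MYL1 and TNNT3 (ENSDARG00000030270) lost their calls (limma adjusted p from 0.0503 to 0.170). MYL1 and that TNNT3 gene also lost them without control replicate 2 (0.0665 and 0.192). Without the intensity trend of the fit, MYOG (limma adjusted p = 0.0552), myhz1.2 (0.0898), MYL1 (0.0685) and that TNNT3 gene (0.139) were not called. Measured against the mean log2 level of the tested genes, EN2 differed by -2.08 for fast muscle (replicate SD 0.44) and -2.22 for muscle in general (0.43). EN1 differed by -0.28 (0.06) and -0.42 (0.07), and the groups overlapped in none of these. Myosin genes have close copies whose reads may be divided between them.

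**Figure D3:**
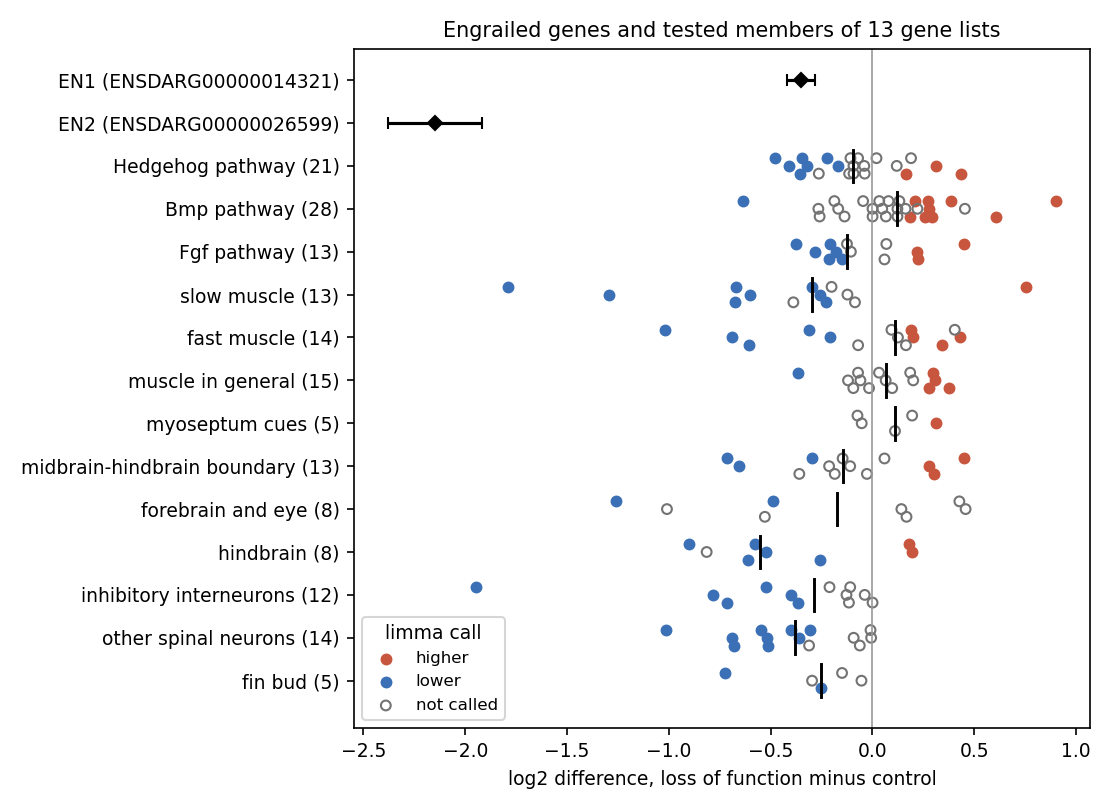
Log2 difference, loss of function minus control (x axis), of EN1 and EN2 (ENSDARG00000026599) with the SE as bars, and of each tested member of 13 lists, with the number tested in brackets. Points are genes, filled where limma called them, and black ticks are list medians. EN2, which was picked for its large fall, lies at -2.15, and the slow muscle median lies at -0.30.

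Hedgehog signalling, which muscle pioneers need, showed small differences at several levels. Of 21 tested genes, 3 rose and 7 fell (median -0.09), beside 21.9% and 20.0% of all genes. Of the ligands, the more abundant SHH gene (ENSDARG00000068567) rose from 1535 ± 49.0 to 1907 ± 75.8 (SD, n = 3), a log2 difference of 0.31 (SE 0.05, limma adjusted p = 2.09e-04). The other SHH gene (ENSDARG00000038867) had 150 ± 5.64 and 140 ± 22.4 and did not pass the test. The co-receptor genes CDON (-0.35) and BOC (-0.32) and the ligand carrier SCUBE2 (-0.36) fell.

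PTCH1 and HHIP, a receptor and a ligand-binding protein that are also transcriptional targets of the pathway, had log2 differences of -0.09 (95% interval -0.19 to 0.01) and -0.07 (-0.17 to 0.03), neither called. The signal transducer SMO fell by 0.17. Both GLI2 transcription factor genes rose (ENSDARG00000020884, 0.43; ENSDARG00000025641, 0.16), the second not after quantile normalization (limma adjusted p = 0.115), without the trend (0.0828), without loss of function replicate 1 (0.0680) or without replicate 2 of that group (0.0594). Of the ventral neural targets, NKX2-2 fell by 0.48 and OLIG2 by 0.41, and FOXA2 (-0.09) did not pass the test. The gene gli1 was not matched to an ID.

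Bmp genes leaned the other way. Of 28 tested, 9 rose and 1 fell (median 0.12), beside 21.9% and 20.0% of all genes. The list had 10 calls in all, and 6 when loss of function replicate 3 was left out. Among the ligands, BMP2 (ENSDARG00000041430, 0.26), BMP7 (0.39) and gdf6a (0.21) rose, whereas BMP4 had a log2 difference of -0.05 and did not pass the test. Among the targets, ID3 rose from 2649 ± 48.2 to 3213 ± 117 (log2 difference 0.28, limma adjusted p = 2.59e-04) and id2b by 0.27. The abundant ID1 had 24866 ± 1757 and 25662 ± 310, a log2 difference of 0.05 that was not called (95% interval -0.07 to 0.17).

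The 2 largest increases of the list were extracellular antagonists. A follistatin gene, FST (ENSDARG00000052846), had 1013, 816 and 1063 in control replicates 1, 2 and 3 and 1759, 1796 and 1819 in the loss of function replicates. It rose by a log2 difference of 0.90 (SE 0.08, limma adjusted p = 1.84e-07), and the groups were well apart. A noggin gene, NOG (ENSDARG00000058819), rose by 0.61 (SE 0.07). BAMBI, a decoy receptor, rose by 0.29 and the transducer SMAD1 by 0.18. The 1 gene that fell, SMAD4 (ENSDARG00000012649, -0.63), had means of 49.5 and 31.8 and did not pass without loss of function replicate 3 (limma adjusted p = 0.0786) or with DESeq2 (adjusted p = 0.0694).

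Fgf genes went both ways, 3 of 13 up and 6 down (median -0.13), beside 21.9% and 20.0% of all genes. The ligand gene FGF8 (ENSDARG00000003399) rose from 279 ± 38.9 to 379 ± 6.40 (log2 difference 0.45, limma adjusted p = 0.00133), while the receptors FGFR1 (ENSDARG00000011027), FGFR2 and fgfr4 fell by log2 differences of 0.15 to 0.21. Of the transcriptional targets, SPRY4 (-0.38), etv5b (-0.28) and DUSP6 (-0.18) fell, and SPRY2 and ETV4 rose by 0.22 each. Of 5 tested cues of the horizontal myoseptum, 1 rose and 0 fell, beside 21.9% and 20.0% of all genes. It was the matrix gene col15a1b, from 502 ± 34.8 to 622 ± 33.5 (0.31, limma adjusted p = 0.00317). CXCL12, the chemokine that the lateral line primordium follows along the myoseptum, had 2051 ± 61.2 and 2213 ± 23.8, a log2 difference of 0.11 that did not pass the test.

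Engrailed is also expressed at the midbrain-hindbrain boundary, so traces of head tissue were measured. Boundary genes gave 3 of 13 higher and 3 lower (median -0.15; 0.05 without loss of function replicate 1), beside 21.9% and 20.0% of all genes. The summed list of 15 was 3793 to 4331 in controls and 3564 to 3666 in loss of function. The defining gene her5 had values of 0.99 to 8.12 over the 6 libraries and PAX5 of 4.99 to 12.3. WNT1, which the dorsal spinal cord also expresses, had 50.1 ± 13.0 and 45.7 ± 13.7. PAX2 (ENSDARG00000028148), also a gene of kidney and spinal interneurons, fell by 0.72 on the log2 scale. DMBX1 (ENSDARG00000009922, -0.65) and LMX1B (-0.30) fell too, and GBX2 (0.30), CNPY1 (0.28) and FGF8 rose. GBX2 lost its call without loss of function replicate 3 (limma adjusted p = 0.0551), and CNPY1 without control replicate 1 or loss of function replicate 2 or 3 (0.0652 to 0.111). Measured against the mean log2 level of the tested boundary genes, EN2 differed by -2.03 in loss of function, with a replicate SD of 0.42, and EN1 by -0.23, with one of 0.10. The groups did not overlap in either. No defining marker was at 0 throughout, and the part of this tissue in the engrailed values was not tested.

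Forebrain and eye genes were scarce. Of 19, 8 were tested, and 2 fell and 0 rose, beside 20.0% and 21.9% of all genes. NKX2-1 (means 21.1 and 8.48) was among those that fell. The tested SIX3 gene (ENSDARG00000058008) had means of 15.0 and 8.84 and was not called. The other 11 were too low to test, among them a SIX3 gene with 2.96 to 9.97. The summed values of all 19 were 506 to 541 in controls and 529 to 566 in loss of function. EMX2 (means 314 and 353, not called) made up most of each sum. The list had 1 to 2 calls when 1 library was left out. Hindbrain genes gave 5 of 8 lower and 2 higher (median -0.55), beside 20.0% and 21.9% of all genes. Their summed values were 9521 to 11208 in controls and 8014 to 8124 in loss of function. PHOX2A, a factor of cranial motor and noradrenergic neurons, fell from 461 ± 46.4 to 248 ± 41.6 (log2 difference -0.90). The segment identity genes hoxb1a, hoxb1b and HOXB2 fell by 0.61, 0.52 and 0.26, while hoxa2b rose by 0.20. Without control replicate 1 or loss of function replicate 1 or 3, hoxa2b lost its call (limma adjusted p from 0.0790 to 0.0984). The sources used here do not say where the head was cut off, and the part of hindbrain tissue in the engrailed values was not tested.

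**Figure D4:**
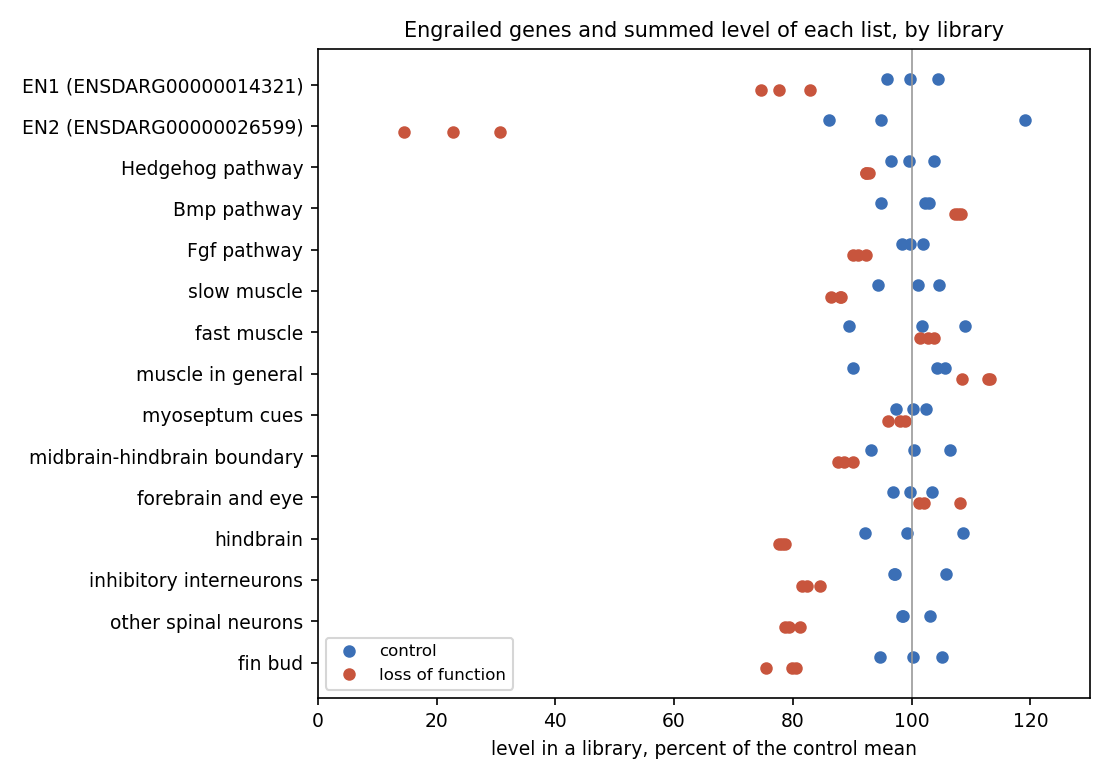
Level in each library as a percent of the control mean (x axis, from 0) for EN1, EN2 (ENSDARG00000026599) and the summed values of 13 lists, in 3 control (blue) and 3 loss of function (red) libraries. EN2, picked for its large fall, is at 14.5% to 30.7% in loss of function. The summed slow muscle list is at 86.5% to 88.2% and the hindbrain list at 77.6% to 78.7%.

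Inhibitory interneuron genes fell in part. Of 12 tested, 6 fell and 0 rose (median -0.29), beside 20.0% and 21.9% of all genes. The summed values were 6074 to 6620 in controls and 5102 to 5289 in loss of function. The glycine transporter gene SLC6A5, which marks the transmitter that the engrailed-positive interneurons use, had control values of 19.4, 29.6 and 21.3 and loss of function values of 6.98, 2.97 and 6.69. The groups did not overlap (log2 difference -1.95, SE 0.37, limma adjusted p = 4.84e-04). PAX8 fell from 79.8 ± 1.83 to 46.3 ± 6.97 (-0.78), and GAD1 (ENSDARG00000027419), which encodes a GABA-making enzyme, by 0.52. Measured against the mean log2 level of the tested genes of the list, EN2 differed by -1.71 in loss of function, with a replicate SD of 0.46, and the groups did not overlap. EN1 was 0.09 higher on that scale (replicate SD 0.08), and the groups overlapped. That mean weighs the low gene SLC6A5 equally with the others. The log2 difference of EN1 itself, -0.35, was a slightly larger fall than the list median of -0.29. The vesicular transporter gene SLC32A1, which loads both GABA and glycine, had 1220 ± 69.4 and 1220 ± 54.5, a log2 difference of 0.00036 (95% interval -0.13 to 0.13).

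Of 14 tested genes of other spinal neurons, 9 fell and 0 rose (median -0.38), beside the same shares of all genes. CHAT, the enzyme that makes acetylcholine, fell by 1.01 on the log2 scale, the motor neuron factors mnx2a and ISL2 (ENSDARG00000003971) by 0.69 and 0.36, and ELAVL3, an RNA-binding protein of most neurons, by 0.51. Their summed values were 9283 to 9715 in controls, against 7414 to 7649 in loss of function. The part of neurons in the engrailed values was not tested. In the fin bud list, 2 of 5 tested genes fell, beside 20.0% of all genes, both named PRRX1 (ENSDARG00000042027, -0.73; ENSDARG00000033971, -0.25), and the fin bud signal gene fgf24 had 52.1 ± 4.63 and 50.2 ± 4.65. TBX5, which fin bud formation requires, was too low to test, with control values of 8.81, 7.89 and 8.12 and loss of function values of 0.997, 3.96 and 1.11, which did not overlap. With no filter on low values, 3 of the 7 genes of the list fell and 0 rose. That fit called 7681 of 24789 genes in either direction, and the 20.0% belongs to the filtered fit.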

How the data were processed

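The authors deposited 1 gene table per library, whose values are a normalized signal. They are read counts divided by 1 size factor per library, since 100% of them came out as whole reads, to within 0.001 of a read. The submitters' processing notes name DESeq 1.8.3, HTSeq 0.5.3, SAMtools, STAR 2.4.0j, Bowtie 0.12.9 and build Zv9, and give them no roles. Libraries did not keep the strand, per the labels' protocols, so reads of a gene and an antisense neighbour are not told apart. Exon tables were not used, because the tables used here do not pair exons with genes.

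The test was limma 3.58.1 (R 4.3.3), with an intensity trend, on log2(value + 1), for genes that reached a value of 10 in 3 or more of the 6 libraries. This scale understates changes of low genes. P-values are 2-sided and Benjamini-Hochberg adjusted over all genes tested, threshold 0.05. EdgeR 4.0.16 and DESeq2 1.42.0 were run on the recovered reads as alternatives, and the fits were tested on simulated data.

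Members and lists were chosen with earlier results of these data known. Of 214 planned list entries, 17 were unmatched, and 75 of 186 genes were matched through a human name, which brings in both zebrafish copies where there are 2. Named were the engrailed and quaking genes, up to 4 called members per list by adjusted p, all called members where 5 or fewer moved in a direction, and the 5 genes closest in pattern. Genes named beyond this, such as PTCH1, were chosen after their values were seen. Some genes that the rule names are not reported here. Chi-square per degree of freedom between libraries of a group was 7.90 to 14.2 in controls and 2.11 to 2.45 in loss of function. Both were above sampling noise, the controls further so, and all 6 libraries were kept.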

Additional observations from a re-analysis of the deposited data

How the results depend on the processing

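Over all alternatives run, the log2 difference of EN2 (ENSDARG00000026599) stayed between -2.39 and -1.87 and that of EN1 between -0.39 and -0.32, within their replicate SDs of 0.41 and 0.07. The lowest and highest came from leaving out libraries. The number of genes called, 7935, was 6077 to 8344 when 1 library was left out and 6844 with DESeq2. With the replicate number as a block, 7814 genes were called. The deviations of same-numbered libraries correlated at -0.07 to 0.01, and those of differently numbered ones at -0.05 to 0.07. With 3 libraries in a group, this cannot decide whether the numbers pair the libraries.

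Counts of called list members that moved by more than 1.5 times were these. The Bmp list gave 6 to 11 calls without 1 library, against 10. The fast muscle list gave 5 without the trend, against 9. The myoseptum cues gave 3 after quantile normalization and 1 to 2 without 1 library, against 1. The forebrain and eye list, against 2, gave 1 without the filter, after quantile normalization, with the block and with DESeq2, 0 at a mean of at least 50, and 1 to 2 without 1 library. The gene ckmb, called higher (0.28), was at -0.0794 after quantile normalization. Of 1138 results of 72 named genes under the alternatives, 57 lost their call in the same direction, 1 gained it, and 1, that of ckmb, changed sign and was no longer called. Depth limits EN2 (ENSDARG00000038868), at 7 reads or fewer, and SLC6A5. The cause of these changes was not tested.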
